A study of Mus musculus with 18 samples.

Results

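The 38 genes described here encode enzymes of cholesterol and fatty acid synthesis, the SREBP proteins that control them, and a few genes that move sterols or use fatty acids. They were taken from a list and matched by symbol, or by an older symbol, to rows of a mouse exon array that carry 1 gene symbol. Of the 38, 34 had such a row, out of 14847 genes named in this way. Acat2 had no row and no probe set, Acss2 and Tm7sf2 lay on rows shared with a neighbouring gene, and Idi1 was measured only by 6 probe sets at the exon level. RNA came from mouse embryonic fibroblasts, which are cultured connective tissue cells of the embryo. There were 3 genotypes with 3 arrays each. They were AGO2 -/- cells (AGO2 null), which lack the Argonaute protein that small RNAs guide to their targets, Dicer -/- cells (Dicer null), which lack the enzyme that makes mature microRNAs, and wild-type cells. The culture lasted 3 days, with 7% fetal calf serum in the medium. Each array was deposited at the gene level and at the exon level, which makes 18 samples of 9 hybridisations.

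According to the labels, AGO2 null cells had a different origin from the Dicer null and wild-type cells, so source and genotype cannot be told apart for AGO2 null cells. The labels call the arrays of a genotype biological replicates, and they do not say whether these were separate animals, clones or cultures. What the p-values measure is thus the spread between these arrays, part of which may be technical. As in any bulk sample, fewer cells of a type and less RNA per cell cannot be told apart.

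Cholesterol is built from acetyl-CoA through mevalonate, farnesyl pyrophosphate, squalene and lanosterol. Its enzymes are made under the control of SREBP-2 (Srebf2), a transcription factor held in the endoplasmic reticulum by Scap and the Insig proteins. When sterols run low, Scap carries it to the Golgi, where the proteases Mbtps1 and Mbtps2 release its active part. SREBP-1 (Srebf1) acts in the same way with a stronger leaning to fatty acid synthesis, and oxysterols act through the LXR receptors on export genes such as Abca1.

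The array medians lay between 6.28 and 6.37 on the log2 scale at the gene level, and arrays correlated at 0.985 to 0.993 within a genotype and at 0.957 to 0.972 between genotypes. The targeted genes followed the labels. Ago2 read 6.74, 6.92 and 6.65 in AGO2 null cells, 9.23, 9.15 and 9.04 in Dicer null cells and 8.24, 8.20 and 8.24 in wild-type cells. Dicer1 read 9.40, 9.42 and 9.39 in AGO2 null cells, 8.42, 8.35 and 8.35 in Dicer null cells and 9.17, 9.17 and 9.20 in wild-type cells. Every value below is a log2 value or a difference of log2 values as deposited, and a gene was called at a limma adjusted p (Benjamini-Hochberg over all 23332 rows) under 0.05.

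Of the 34 genes, 15 rose and 1 fell in Dicer null cells relative to wild type, with the largest gene-level rises in Lpin1, Lss, Fdps (whose row repeats 1 of its 11 probe sets and is not called by their median) and Srebf2, where 11.2% of all rows were called higher and 15.7% lower. The median difference from wild type was 0.34 over the 34 genes and -0.03 over all named genes. In AGO2 null cells 8 rose and 0 fell, where 11.8% of all rows were called higher and 9.17% lower, and the median difference was 0.06 against 0.02 over all named genes. Between the null lines, AGO2 null cells were higher than Dicer null cells in 3 genes and lower in 9, where 16.9% of all rows were called higher and 9.45% lower. All rows include rows without a symbol. Over the 14847 named genes alone, 12.2% were called higher and 20.6% lower in Dicer null cells, and 14.5% and 10.6% in AGO2 null cells. Between the null lines 21.7% of the named genes were higher and 8.63% lower in AGO2 null cells. The comparisons share arrays: both null lines are set against the same 3 wild-type arrays.

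**Figure D1:**
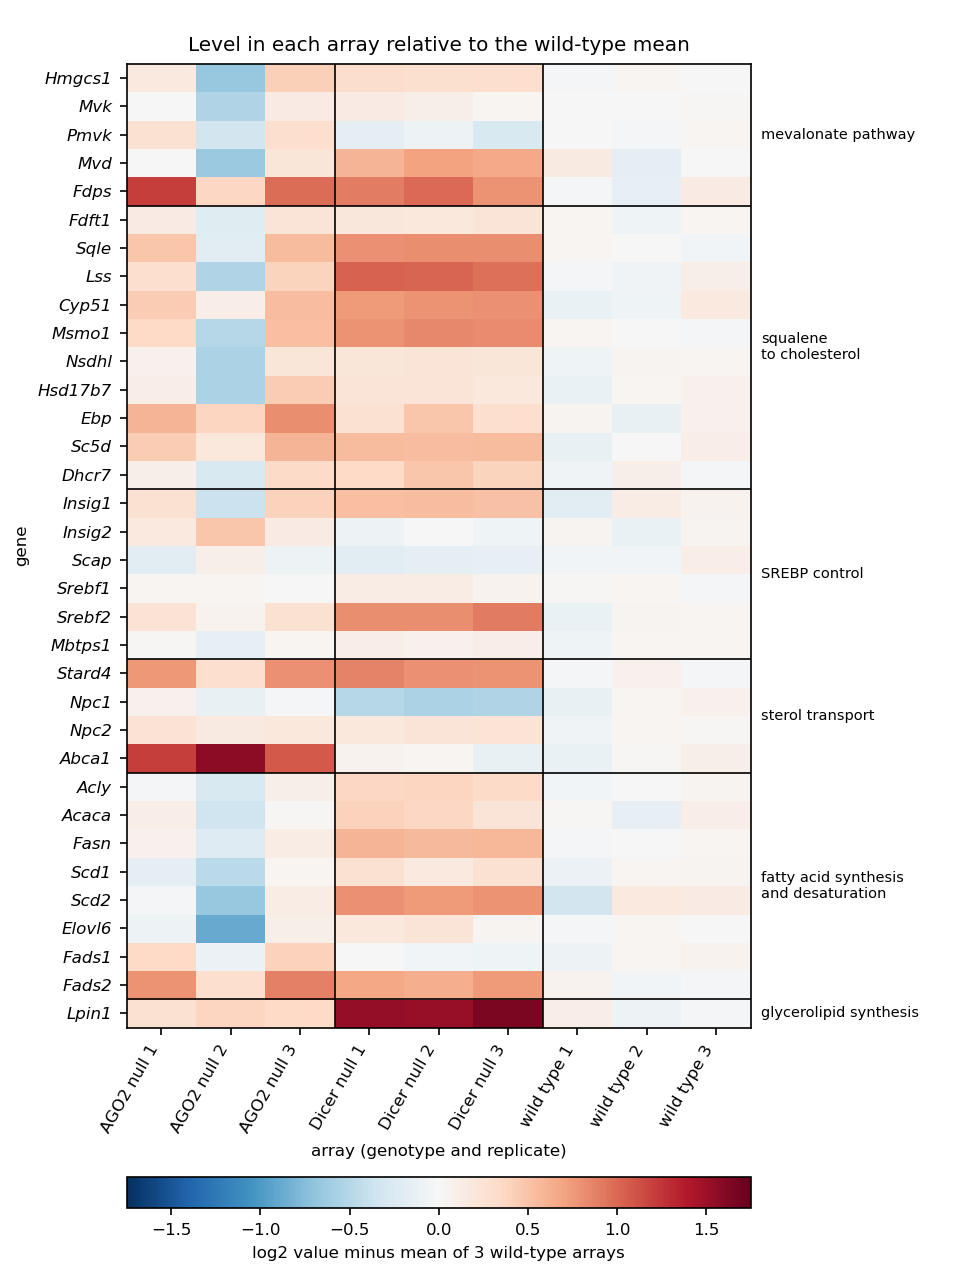
Each row is a gene, each column an array, and the colour is the log2 value minus the mean of the 3 wild-type arrays. The Dicer null columns are red for most enzymes, and the column of AGO2 null replicate 2 is blue for many of them while the other AGO2 null arrays are pale red.

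Replicate 2 of the AGO2 null cells stood apart from the other AGO2 null arrays in these genes. It was the lowest of the 3 in 29 of the 34 genes (85.3%), where it was the lowest in 32.6% of all named genes. The 5 others were Insig2, Scap, Srebf1, Abca1 and Lpin1, where it was the highest. All 15 measured enzymes of sterol synthesis were lowest there, at -0.96 to -0.33 relative to the mean of the other AGO2 null arrays (median -0.71). Of all named genes, 7.49% lay at -0.33 or lower. Over these 15 enzymes the median distance from the wild-type mean was 0.26, -0.32 and 0.42 in AGO2 null replicates 1, 2 and 3, and 0.35, 0.49 and 0.39 in the Dicer null arrays. The 8 enzymes of fatty acid synthesis and desaturation were likewise all lowest in AGO2 null replicate 2. So were 15 of 21 genes of fatty acid oxidation (71.4%), by a smaller median of -0.19. The SD of the 3 arrays had a median over the 34 genes of 0.265 for AGO2 null, 0.036 for Dicer null and 0.086 for wild-type cells, against 0.126, 0.075 and 0.106 over all rows.

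**Figure D2:**
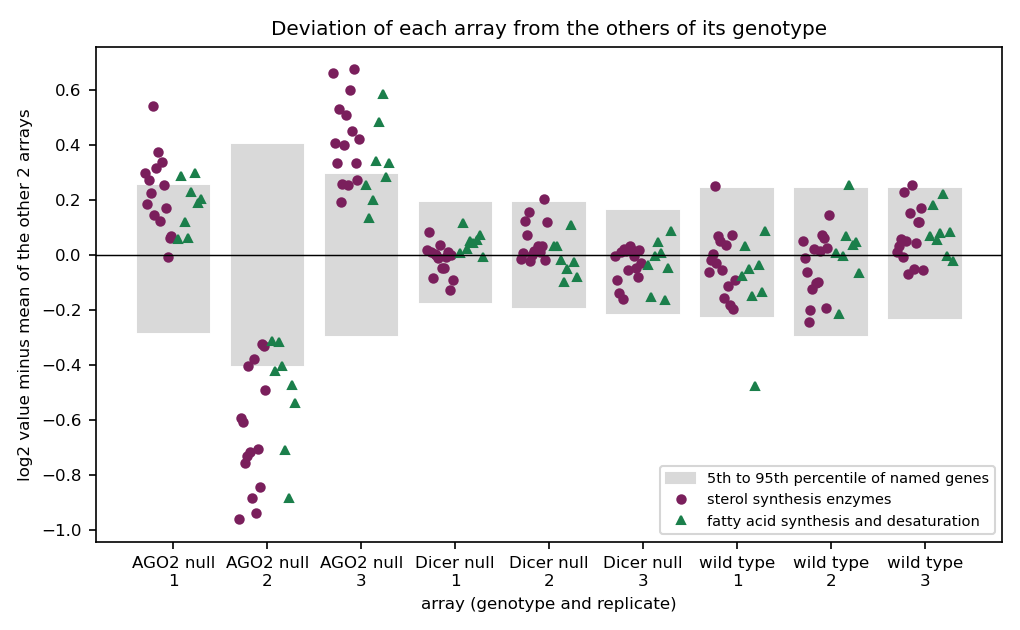
The y axis is the log2 value on an array minus the mean of the other arrays of its genotype, with circles for the 15 sterol synthesis enzymes, triangles for the 8 fatty acid genes and grey bars for the 5th to 95th percentile of named genes. On AGO2 null replicate 2 all 15 circles and all 8 triangles lie at or below -0.31, while those of the Dicer null and wild-type arrays lie around 0, apart from Scd2 at -0.48 on wild-type replicate 1.

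AGO2 null replicate 2 was singled out after the values of these same genes were seen. Calls without it thus describe the weight of that array and are no independent test. Without AGO2 null replicate 2, 17 genes rose and 0 fell in AGO2 null cells relative to wild type, where 12.9% of all rows were higher and 9.15% lower. For Dicer null cells the counts were 23 higher and 1 lower without that array, where 12.8% of all rows were higher and 17.5% lower. The fit takes 1 spread from all 3 genotypes, so an AGO2 null array bears on the Dicer null calls too, and a fit of the 6 Dicer null and wild-type arrays alone also called 23 higher. Between the null lines, 5 were higher and 10 lower in AGO2 null than in Dicer null cells without that array, where 17.8% of all rows were higher and 9.33% lower. The genes called against wild type with all 9 arrays were all called in the same direction without it. Beside this, a fit of the 6 AGO2 null and wild-type arrays called 4 genes higher, Abca1, Ebp, Lpin1 and Stard4.

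The mevalonate pathway makes farnesyl pyrophosphate from acetyl-CoA, and 5 of its enzymes had a gene-level row. Relative to wild type, 2 of the 5 rose in Dicer null cells and 1 in AGO2 null cells. Mvd, the decarboxylase that forms isopentenyl pyrophosphate, read 7.61, 6.96 and 7.82 in AGO2 null cells, 8.21, 8.31 and 8.27 in Dicer null cells and 7.77, 7.44 and 7.60 in wild-type cells. All 3 Dicer null arrays lay above all others, and the AGO2 null arrays spanned the wild-type range. Mvd rose by 0.66 ± 0.20 (SE, n = 3 each) in Dicer null cells (adjusted p = 0.0479) and was lower by a difference of -0.80 ± 0.20 in AGO2 null than in Dicer null cells (adjusted p = 0.0224). The Mvd rise did not pass when any one of 7 single arrays was left out (adjusted p 0.0633 to 0.14 in those fits), and it passed without AGO2 null replicate 2 or 3. It also passed in the fit of the 6 Dicer null and wild-type arrays (adjusted p = 0.00399). As the median of the 13 Mvd probe sets the rise was 0.46 and was not called (adjusted p = 0.0739). The Mvd difference between the null lines did not pass without any 1 of the Dicer null arrays (adjusted p 0.0564 to 0.0702). Nor did that difference pass in the fit of the 6 arrays of the null lines (adjusted p = 0.0562).

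Fdps, the farnesyl pyrophosphate synthase, was the gene of the pathway with the largest gene-level difference in both null lines. Its row read 6.41, 5.56 and 6.18 in AGO2 null cells, 6.09, 6.19 and 5.98 in Dicer null cells and 5.18, 5.06 and 5.35 in wild-type cells. Every array of both null lines lay above every wild-type array. The differences from wild type were 0.86 ± 0.20 in AGO2 null cells (adjusted p = 0.0203) and 0.89 ± 0.20 in Dicer null cells (adjusted p = 0.0129). The row, however, equalled 1 of the gene's 11 probe sets within a tolerance of 0.0001. Taken as the median of its 11 probe sets, Fdps differed from wild type by -0.08 in AGO2 null cells (adjusted p = 0.825) and by 0.32 in Dicer null cells (adjusted p = 0.28), and only that 1 probe set was called in either line. The Fdps rise in AGO2 null cells was also not called in the fit of 6 arrays (adjusted p = 0.0669), nor when AGO2 null replicate 3 or 1 of the first 2 wild-type replicates was left out (adjusted p 0.0609 to 0.0673).

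Hmgcs1, the HMG-CoA synthase that opens the pathway, was not called in either line, at -0.02 in AGO2 null cells (adjusted p = 0.971) and 0.30 in Dicer null cells (adjusted p = 0.459). Its values were 10.64, 9.81 and 10.89 in AGO2 null cells, 10.78, 10.75 and 10.76 in Dicer null cells and 10.43, 10.50 and 10.47 in wild-type cells. Apart from AGO2 null replicate 2, every null array lay above every wild-type array. Without that array the Hmgcs1 difference was 0.30 in both AGO2 null cells (adjusted p = 0.0303) and Dicer null cells (adjusted p = 0.0145). Mvk and Pmvk, the kinases of mevalonate and of its phosphate, had differences of -0.17 to 0.10 from wild type and were not called. Without AGO2 null replicate 2, Pmvk was higher by 0.28 in AGO2 null cells (adjusted p = 0.0192). Idi1, the isomerase that readies the building block for chain growth, was seen only through its 6 probe sets. Their median read 9.62, 8.42 and 9.71 in AGO2 null cells, 9.67, 9.60 and 9.46 in Dicer null cells and 8.76, 8.80 and 9.00 in wild-type cells. The Idi1 median was 0.73 higher in Dicer null cells than in wild type with an adjusted p of 0.0847 and was not called, and AGO2 null replicate 2 was again the low one.

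From squalene to cholesterol, 10 enzymes had a row, of which 5 rose in Dicer null cells and 2 in AGO2 null cells relative to wild type, and 0 fell. The median difference was 0.48 in Dicer null and 0.09 in AGO2 null cells. Lss, the lanosterol synthase that closes the sterol ring system, differed most. It read 8.28, 7.45 and 8.37 in AGO2 null cells, 9.01, 9.00 and 8.95 in Dicer null cells and 7.95, 7.92 and 8.08 in wild-type cells. The Dicer null arrays lay above all others, and the AGO2 null arrays lay on both sides of the wild-type ones. Lss rose by 1.00 ± 0.22, a 2.01-fold difference, in Dicer null cells (adjusted p = 0.0112), against 0.05 ± 0.22 in AGO2 null cells (adjusted p = 0.909). Without AGO2 null replicate 2, Lss was higher by 0.35 in AGO2 null cells than in wild type (adjusted p = 0.0104). The difference of AGO2 null from Dicer null cells was -0.95 ± 0.22 (adjusted p = 0.0151).

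Sqle, the squalene epoxidase, read 10.79, 10.11 and 10.85 in AGO2 null cells, 11.10, 11.11 and 11.12 in Dicer null cells and 10.33, 10.31 and 10.25 in wild-type cells. Cyp51, the lanosterol demethylase, read 10.57, 10.24 and 10.66 in AGO2 null cells, 10.87, 10.91 and 10.92 in Dicer null cells and 10.01, 10.05 and 10.29 in wild-type cells. Msmo1, the oxidase that removes the methyl groups at the next steps, read 10.45, 9.60 and 10.62 in AGO2 null cells, 10.89, 10.94 and 10.93 in Dicer null cells and 10.13, 10.11 and 10.07 in wild-type cells. In all 3 genes the Dicer null arrays were the highest and AGO2 null replicates 1 and 3 came next, above wild type, while AGO2 null replicate 2 fell among or below the wild-type arrays. Relative to wild type the rises in Dicer null cells were 0.81 ± 0.18 for Sqle (adjusted p = 0.0112), 0.78 ± 0.12 for Cyp51 (adjusted p = 0.00167) and 0.82 ± 0.23 for Msmo1 (adjusted p = 0.035). In AGO2 null cells the differences of 0.28, 0.37 and 0.12 were not called with all arrays, and without replicate 2 they were 0.52, 0.50 and 0.44 with adjusted p of 0.000356, 0.00825 and 0.00313. Between the null lines Cyp51 was lower in AGO2 null than in Dicer null cells by a difference of -0.41 (adjusted p = 0.0364), a call lost without 6 of the single arrays, AGO2 null replicate 2 among them (adjusted p = 0.0531). The Msmo1 call in Dicer null cells was lost when any single Dicer null or wild-type array was left out (adjusted p 0.0843 to 0.0944), and held without each AGO2 null array. In the fit of the 6 Dicer null and wild-type arrays the Msmo1 rise was called (adjusted p = 7.85e-05).

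Ebp, the isomerase that moves the sterol double bond, was the enzyme of this stretch that rose in AGO2 null cells beyond 0.5. It read 7.68, 7.47 and 7.91 in AGO2 null cells, 7.35, 7.57 and 7.38 in Dicer null cells and 7.14, 6.96 and 7.17 in wild-type cells. All arrays of both null lines were above wild type. The Ebp difference was 0.59 ± 0.12 in AGO2 null cells (adjusted p = 0.0108) and 0.34 ± 0.12 in Dicer null cells (adjusted p = 0.0792). The Dicer null difference of Ebp passed in the fit of 6 arrays (adjusted p = 0.0379) and without AGO2 null replicate 2 (adjusted p = 0.0383). Sc5d, the lathosterol desaturase, read 10.84, 10.58 and 10.98 in AGO2 null cells, 10.94, 10.93 and 10.95 in Dicer null cells and 10.26, 10.40 and 10.50 in wild-type cells. All null arrays lay above all wild-type arrays. Sc5d rose by 0.41 in AGO2 null cells (adjusted p = 0.0291) and by 0.56 in Dicer null cells (adjusted p = 0.00574). The Sc5d call in AGO2 null cells was lost in the fit of 6 arrays and without each of 7 single arrays, all except AGO2 null replicate 2 and wild-type replicate 3. Fdft1, Nsdhl, Hsd17b7 and Dhcr7, the squalene synthase and enzymes of later steps, lay 0.20 to 0.41 above wild type in Dicer null cells and were not called with all arrays. Without AGO2 null replicate 2, Fdft1 (adjusted p = 0.0194), Nsdhl (adjusted p = 0.0232) and Dhcr7 (adjusted p = 0.00875) were called higher there, as they were in the fit of 6 arrays, and Hsd17b7 was not (adjusted p = 0.168). Tm7sf2, a sterol reductase seen only by 15 probe sets, had probe set medians between 6.59 and 6.94 on all 9 arrays. The differences of its single probe sets from wild type had a median of -0.30 in AGO2 null and -0.29 in Dicer null cells. Of the 15, 0 were called higher and 2 lower in AGO2 null cells, and 0 higher and 1 lower in Dicer null cells.

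**Figure D3:**
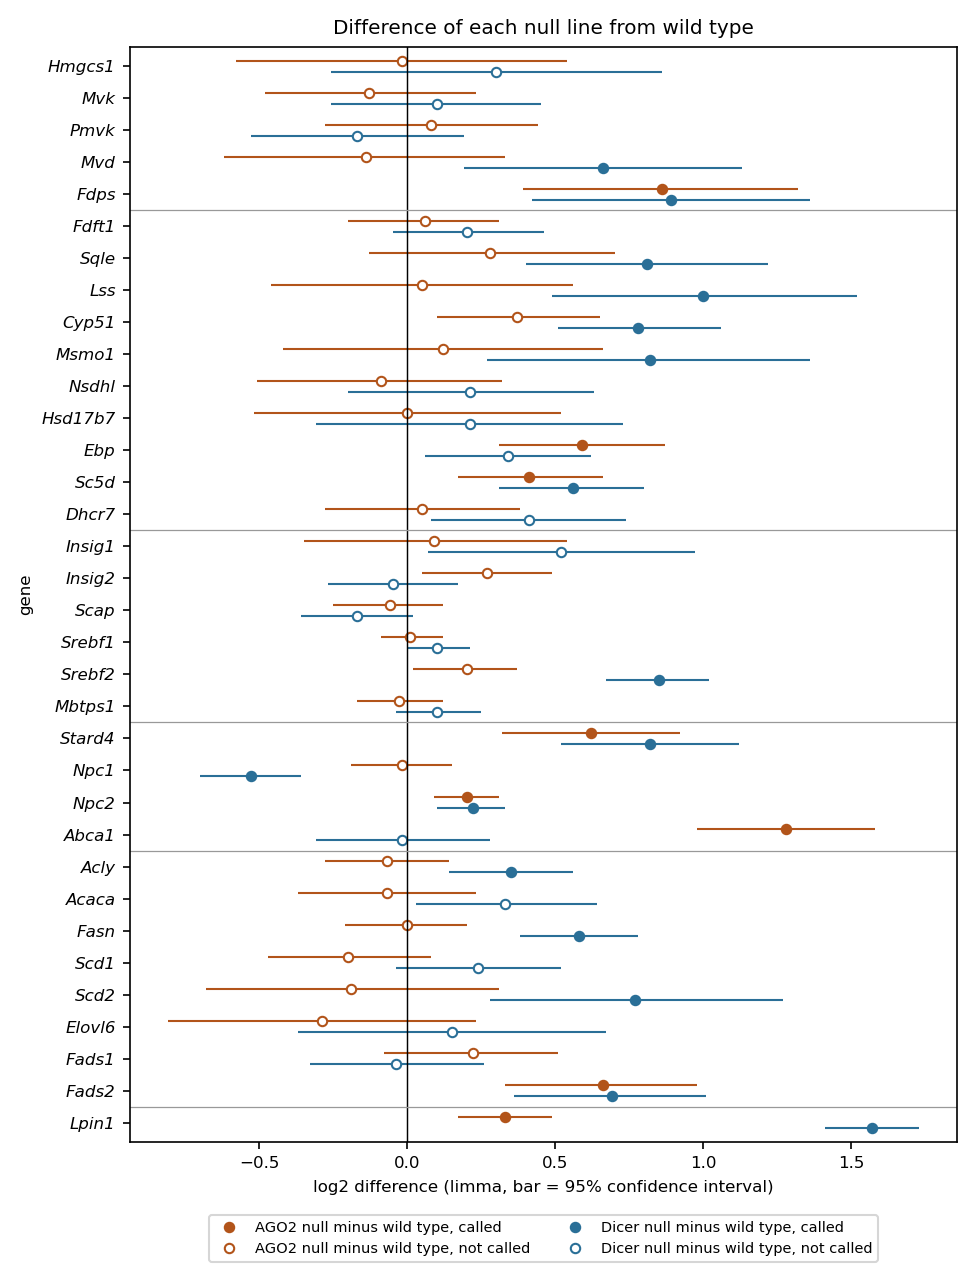
Points are log2 differences from wild type by gene, with AGO2 null above Dicer null in each row, bars are 95% confidence intervals from limma, and filled points were called at an adjusted p under 0.05. The Dicer null points of most sterol and fatty acid enzymes lie right of 0, and Abca1 and Lpin1 stand out in 1 line each at 1.28 (AGO2 null) and 1.57 (Dicer null).

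Promoter windows were read from the RefSeq table of the mouse build GRCm38.p6, which holds the stretch around annotated start sites, and 30 of the 38 genes had a window. The sterol regulatory element, searched on both strands as TCACNCCAC, occurred in 1 of the 30 genes, Hmgcs1, which is 3.33% against 1.45% of the 11901 measured genes with a window. Its shorter core CACNCCAC occurred in 3 of 30 genes (10.0%, against 7.44%). The NF-Y box CCAAT, bound by a partner of the SREBPs, occurred in 22 of 30 (73.3%, against 42.4%), the Sp1 box GGGCGG in 25 (83.3%, against 56.8%) and the E-box CACGTG in 6 (20.0%, against 10.2%). A match of letters is a description of the window and not a binding site. The windows of Hmgcs1 (the 1 with the element), and of Msmo1, Srebf2 and Fasn, chosen after their values were seen because they rose in Dicer null cells, are shown with the letters of the element and of CCAAT on either strand (ATTGG on the other strand) in capitals. In the Fasn window a CCAAT and an ATTGG overlap. The windows lie at chr13:119690101-119690400 on the plus strand (Hmgcs1), chr8:64733529-64733828 on the minus strand (Msmo1), chr15:82147019-82147318 on the plus strand (Srebf2) and chr11:120824498-120824797 on the minus strand (Fasn), each written in the direction of the gene.
Hmgcs1: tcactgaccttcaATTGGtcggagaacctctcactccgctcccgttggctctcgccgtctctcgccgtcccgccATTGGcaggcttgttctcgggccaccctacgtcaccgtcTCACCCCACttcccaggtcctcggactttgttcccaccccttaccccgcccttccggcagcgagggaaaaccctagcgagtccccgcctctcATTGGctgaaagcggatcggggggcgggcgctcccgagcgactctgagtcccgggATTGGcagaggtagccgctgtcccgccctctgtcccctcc
Msmo1: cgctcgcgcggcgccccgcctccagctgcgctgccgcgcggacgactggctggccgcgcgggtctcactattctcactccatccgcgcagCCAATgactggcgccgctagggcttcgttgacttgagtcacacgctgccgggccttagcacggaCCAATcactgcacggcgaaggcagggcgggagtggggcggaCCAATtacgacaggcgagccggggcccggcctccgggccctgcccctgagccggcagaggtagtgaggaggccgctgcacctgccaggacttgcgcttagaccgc
Srebf2: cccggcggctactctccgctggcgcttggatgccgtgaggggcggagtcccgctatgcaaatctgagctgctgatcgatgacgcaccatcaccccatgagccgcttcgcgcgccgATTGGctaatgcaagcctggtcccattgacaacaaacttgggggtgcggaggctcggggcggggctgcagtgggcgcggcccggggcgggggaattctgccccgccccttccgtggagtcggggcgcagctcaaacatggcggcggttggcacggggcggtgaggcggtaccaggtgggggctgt
Fasn: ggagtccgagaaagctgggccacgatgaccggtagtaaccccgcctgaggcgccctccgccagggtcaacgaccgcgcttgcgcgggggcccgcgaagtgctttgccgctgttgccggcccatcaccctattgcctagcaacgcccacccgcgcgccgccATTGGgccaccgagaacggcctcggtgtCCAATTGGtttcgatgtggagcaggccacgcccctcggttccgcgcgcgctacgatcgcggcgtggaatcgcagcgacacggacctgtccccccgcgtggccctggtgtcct
In Hmgcs1 the element begins at position -137 relative to the start site, on the strand of the gene, with 4 NF-Y boxes in the same window. Msmo1 held 3 NF-Y boxes, Srebf2 held 1 and Fasn held 3.

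Of the 6 genes that control SREBP, Srebf2 rose in Dicer null cells and none of the 6 was called in AGO2 null cells relative to wild type. Srebf2 read 9.50, 9.31 and 9.52 in AGO2 null cells, 10.06, 10.06 and 10.16 in Dicer null cells and 9.14, 9.30 and 9.29 in wild-type cells. The Dicer null arrays lay well above all others, and the AGO2 null arrays lay just above wild type. Srebf2 rose by 0.85 ± 0.08, or 1.80-fold, in Dicer null cells (adjusted p = 9.74e-05), and was lower by a difference of -0.65 ± 0.08 in AGO2 null than in Dicer null cells (adjusted p = 0.000538). Against wild type the AGO2 null difference was 0.20 ± 0.08 (adjusted p = 0.116), and 0.26 without replicate 2 (adjusted p = 0.0298). The Srebf2 row also equalled 1 of its 12 probe sets. Here the median of the 12 probe sets gave a like result, 0.74 in Dicer null cells (adjusted p = 0.000184) and 0.16 in AGO2 null cells (adjusted p = 0.283).

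Srebf1 was nearly level over the 9 arrays. It read 7.53, 7.54 and 7.49 in AGO2 null cells, 7.63, 7.63 and 7.56 in Dicer null cells and 7.52, 7.54 and 7.46 in wild-type cells. Its difference in Dicer null cells was 0.10 ± 0.04 (adjusted p = 0.146), which passed after median centring (adjusted p = 0.0228) or quantile normalization (adjusted p = 0.0375). Scap, the escort of the SREBPs, read 8.07, 8.35 and 8.16 in AGO2 null cells, 8.06, 8.09 and 8.10 in Dicer null cells and 8.20, 8.20 and 8.36 in wild-type cells. Mbtps1, the first of the SREBP proteases, read 8.94, 8.78 and 8.96 in AGO2 null cells, 9.03, 9.00 and 9.04 in Dicer null cells and 8.84, 8.96 and 8.96 in wild-type cells. For these genes the differences from wild type were within 0.17 in size and were not called.

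The Insig proteins hold Scap in the endoplasmic reticulum, and Insig1 is itself a target of the SREBPs. Insig1 read 10.53, 9.89 and 10.68 in AGO2 null cells, 10.79, 10.81 and 10.78 in Dicer null cells and 10.09, 10.40 and 10.33 in wild-type cells. The Dicer null arrays were the highest, with AGO2 null replicate 2 the lowest of all 9. Its Dicer null difference of 0.52 ± 0.19 was not called (adjusted p = 0.089). It passed without AGO2 null replicate 2 (adjusted p = 0.00474) and in the fit of 6 arrays (adjusted p = 0.00869). It also passed as the median of its 10 probe sets on each array, at 0.96 (adjusted p = 0.0183). The differences of its single probe sets, however, had a median of 0.38, with 2 of the 10 called higher. Insig2 was in contrast highest on AGO2 null replicate 2, with 7.74, 8.05 and 7.72 in AGO2 null cells, 7.48, 7.57 and 7.50 in Dicer null cells and 7.62, 7.46 and 7.62 in wild-type cells. It was higher by 0.32 ± 0.10 in AGO2 null than in Dicer null cells (adjusted p = 0.0449), a call lost without AGO2 null replicate 2 (adjusted p = 0.0559) and without each of 5 other arrays. Against wild type the Insig2 row differed by 0.27 in AGO2 null cells and was not called (adjusted p = 0.0936). As the median of its 11 probe sets that difference was 0.36 and passed (adjusted p = 0.0276).

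Among 8 genes of fatty acid synthesis and desaturation, 4 rose in Dicer null cells and 1 in AGO2 null cells relative to wild type, and 4 were lower in AGO2 null than in Dicer null cells. Their median difference was 0.34 in Dicer null and -0.07 in AGO2 null cells. Fasn, the fatty acid synthase, read 8.58, 8.29 and 8.64 in AGO2 null cells, 9.11, 9.08 and 9.09 in Dicer null cells and 8.48, 8.51 and 8.54 in wild-type cells. Scd2, a desaturase that puts the first double bond into a saturated chain, read 9.19, 8.56 and 9.35 in AGO2 null cells, 10.02, 9.96 and 10.00 in Dicer null cells and 8.90, 9.39 and 9.37 in wild-type cells. In both genes the Dicer null arrays lay apart above the rest, and the AGO2 null and wild-type arrays overlapped. Fasn rose by 0.58 ± 0.09 in Dicer null cells (adjusted p = 0.00159) and differed by 0.00 ± 0.09 in AGO2 null cells (adjusted p = 0.981). Scd2 rose by 0.77 ± 0.21 in Dicer null cells (adjusted p = 0.0307), with AGO2 null lower than Dicer null cells by a difference of -0.96 ± 0.21 (adjusted p = 0.0125). That Scd2 rise was not called without any 1 of the Dicer null arrays or without wild-type replicates 1 or 3 (adjusted p 0.0526 to 0.0961). It was called in the fit of the 6 Dicer null and wild-type arrays (adjusted p = 0.0112). Acly, which makes cytosolic acetyl-CoA from citrate, rose by 0.35 in Dicer null cells (adjusted p = 0.0233). That call did not hold without 5 of the single arrays, and held in the fit of the 6 Dicer null and wild-type arrays (adjusted p = 0.00236). Acaca, the acetyl-CoA carboxylase, differed by 0.33 in Dicer null cells (adjusted p = 0.103, and 0.0233 without AGO2 null replicate 2).

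Fads2, the desaturase that opens the synthesis of long polyunsaturated fatty acids, rose in both null lines. It read 10.38, 9.89 and 10.47 in AGO2 null cells, 10.27, 10.22 and 10.33 in Dicer null cells and 9.65, 9.54 and 9.57 in wild-type cells. No null array overlapped the wild-type ones. The Fads2 difference from wild type was 0.66 ± 0.14 in AGO2 null cells (adjusted p = 0.013, and 0.0515 in the fit of 6 arrays) and 0.69 ± 0.14 in Dicer null cells (adjusted p = 0.00786). Fads1, its partner desaturase, differed by 0.22 in AGO2 null cells and by -0.04 in Dicer null cells and was not called. Without AGO2 null replicate 2 it was higher by 0.38 in AGO2 null cells than in wild type (adjusted p = 0.00542). Scd1 and Elovl6, a second desaturase and the elongase of saturated chains, were not called against wild type with all arrays. In Dicer null cells the Scd1 difference of 0.24 passed in the fit of 6 arrays (adjusted p = 0.0347) and without AGO2 null replicate 2 (adjusted p = 0.0431). Scd1 was lower in AGO2 null than in Dicer null cells by a difference of -0.44 (adjusted p = 0.0306, and 0.0706 in the fit of 6 arrays).

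Of 4 sterol transport genes, 3 rose in AGO2 null cells, and 2 rose and 1 fell in Dicer null cells relative to wild type. Abca1, which exports cholesterol to apolipoproteins and is induced through the LXR receptors, read 9.22, 9.57 and 9.08 in AGO2 null cells, 8.07, 8.04 and 7.88 in Dicer null cells and 7.90, 8.03 and 8.11 in wild-type cells. The AGO2 null arrays lay about 1 log2 unit above all others, and the Dicer null and wild-type arrays overlapped. Abca1 rose by 1.28 ± 0.13, a 2.42-fold difference, in AGO2 null cells relative to wild type (adjusted p = 0.000355) and by 1.29 ± 0.13 relative to Dicer null cells (adjusted p = 0.000247). Unlike the enzymes, it was highest in AGO2 null replicate 2, and without that array the difference from wild type was 1.14 (adjusted p = 0.000274).

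Npc1, the membrane protein that releases cholesterol from lysosomes, read 9.20, 9.00 and 9.11 in AGO2 null cells, 8.63, 8.57 and 8.61 in Dicer null cells and 9.00, 9.17 and 9.21 in wild-type cells. It was the only 1 of the 34 genes called lower in Dicer null cells, by a difference of -0.53 ± 0.07 (adjusted p = 0.00111), and its Dicer null arrays lay below all others. Npc2, the soluble partner of Npc1 in the lysosome, was higher by 0.20 in AGO2 null cells (adjusted p = 0.0231) and by 0.22 in Dicer null cells (adjusted p = 0.012). The Npc2 call in AGO2 null cells was lost after quantile normalization (adjusted p = 0.357), in the fit of 6 arrays (adjusted p = 0.078) and without 3 of the single arrays. As the median of its 6 probe sets, Npc2 was called in neither line (adjusted p = 0.0831 in AGO2 null and 0.0919 in Dicer null cells). Stard4, a carrier of sterols between membranes and an SREBP-2 target, read 9.03, 8.56 and 9.07 in AGO2 null cells, 9.14, 9.07 and 9.06 in Dicer null cells and 8.23, 8.34 and 8.24 in wild-type cells. Both null lines lay above wild type on every array, by 0.62 ± 0.13 in AGO2 null cells (adjusted p = 0.012) and by 0.82 ± 0.13 in Dicer null cells (adjusted p = 0.00204).

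Lpin1, the phosphatidate phosphatase lipin-1 that supplies diacylglycerol for lipid synthesis, had the largest difference from wild type of the 34 genes. It read 6.73, 6.85 and 6.82 in AGO2 null cells, 8.01, 8.0 and 8.12 in Dicer null cells and 6.59, 6.38 and 6.45 in wild-type cells. The 3 genotypes did not overlap, in the order Dicer null, AGO2 null, wild type. Lpin1 rose by 1.57 ± 0.07, a 2.98-fold difference, in Dicer null cells (adjusted p = 2.01e-06) and by 0.33 ± 0.07 in AGO2 null cells (adjusted p = 0.013). AGO2 null cells were lower than Dicer null cells by a difference of -1.25 ± 0.07 (adjusted p = 1.17e-05).

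**Figure D4:**
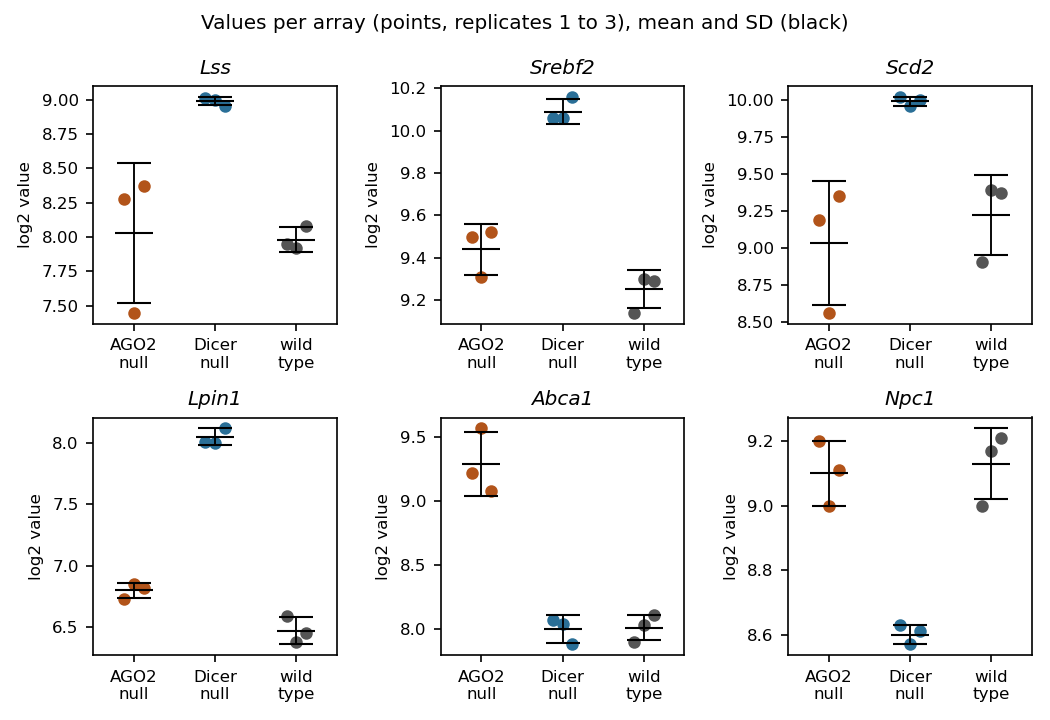
Points are log2 values of single arrays, and black bars give the mean and SD of the 3 arrays of a genotype. Lss, Srebf2, Scd2 and Lpin1 are highest in Dicer null cells, Abca1 is highest in AGO2 null cells, and Npc1 is lowest in Dicer null cells.

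At the exon level 36 of the 38 genes had 647 probe sets, which come from the same hybridisations as the gene rows. Relative to wild type, 85 of the 647 probe sets were higher and 12 lower in AGO2 null cells, where 9.07% of all 229581 probe sets were higher and 6.35% lower. In Dicer null cells 175 were higher and 20 lower, where 8.93% of all were higher and 12.2% lower. Between the null lines 81 were higher and 159 lower in AGO2 null than in Dicer null cells, where 12.6% of all were higher and 6.08% lower. Without AGO2 null replicate 2 the number higher in AGO2 null cells than in wild type was 150, where 9.46% of all were higher. Without any 1 of the Dicer null arrays the number higher in Dicer null cells was 105 to 112, and that lower in AGO2 null than in Dicer null cells was 85 to 96. Abca1 alone gave 56 of the 85 higher probe sets in AGO2 null cells, out of its 59.

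In several genes most probe sets were called in 1 direction in Dicer null cells. Relative to wild type, 21 of 23 probe sets of Lss were higher there, 35 of 50 of Fasn, 20 of 23 of Lpin1, 10 of 12 of Srebf2, 11 of 14 of Sqle, 10 of 13 of Cyp51 and 9 of 14 of Fads2. Of the 28 probe sets of Npc1, 16 were lower. Acaca, whose row was not called against Dicer null cells (adjusted p = 0.055), had 37 of its 62 probe sets lower in AGO2 null than in Dicer null cells. Fdps had 1 of 11 probe sets called in each null line, the one its row repeats.

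**Figure D5:**
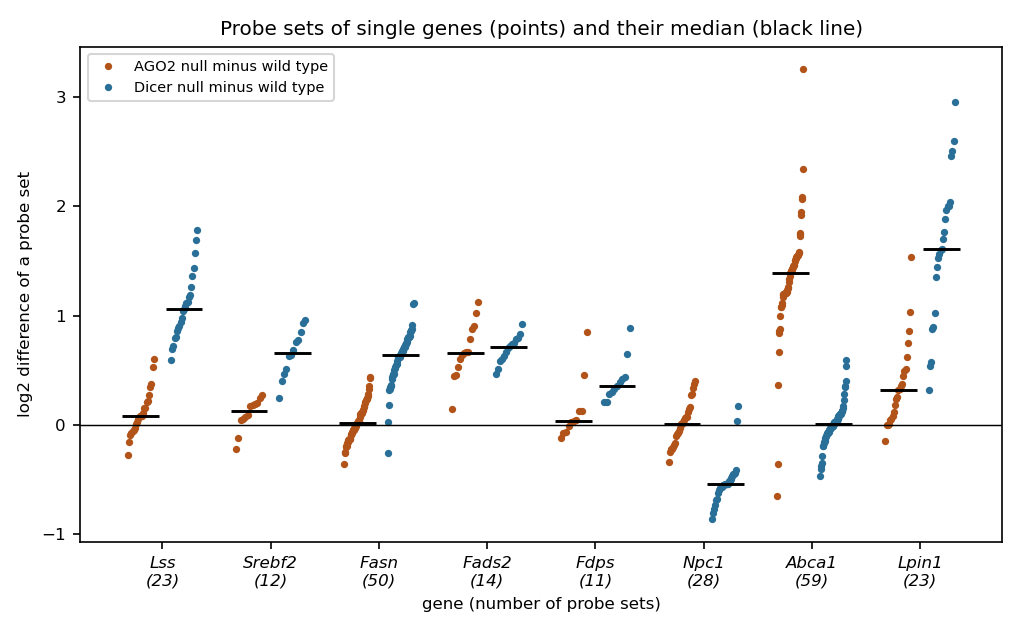
Points are log2 differences of single probe sets from wild type, sorted within a gene, and black lines are their medians. The probe sets of Lss, Srebf2, Fasn and Lpin1 lie mostly above 0 in Dicer null cells and those of Npc1 mostly below, while the AGO2 null points of Fdps lie around 0 apart from a few, and those of Abca1 have a median of 1.39 with 2 points below 0.

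Single exons were compared through the splicing index. For each array it subtracts the gene's median probe set value from the value of 1 probe set, both in log2. If a gene goes up and a probe set stays level, the index of that probe set goes down. Among 613 probe sets of 35 genes, 23 were called in AGO2 null cells against wild type (10 higher and 13 lower), where 2.54% of all 106914 tested probe sets were higher and 3.5% lower. In Dicer null cells against wild type 29 were called (10 higher and 19 lower), where 3.09% of all were higher and 3.37% lower. Between the null lines 24 were called (8 higher and 16 lower), where 2.59% of all were higher and 3.2% lower. As shares of the 613, all these counts were below those of all tested probe sets, and they moved by more than 1.5 times when single arrays were left out. Without Dicer null replicate 3, for example, 1 index was higher in Dicer null cells than in wild type.

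The largest index differences were in Abca1. Probe set 5290755 read 9.58, 9.69 and 9.23 in AGO2 null cells, 9.75, 9.81 and 9.85 in Dicer null cells and 10.10, 10.21 and 10.16 in wild-type cells. While the median of the gene's probe sets was 1.47 higher in AGO2 null cells than in wild type, this probe set was lower by a difference of -0.65 (adjusted p = 0.0114), an index difference of -2.12 ± 0.10 (adjusted p = 3.46e-05). Probe set 4954173 of Abca1 had an index difference of -1.82 ± 0.12 (adjusted p = 0.000123). For probe set 5175336 the index difference of -1.11 was not called without AGO2 null replicate 2 (adjusted p = 0.0586) or without 3 other single arrays. Relative to Dicer null cells the index differences in AGO2 null cells were -1.67 for 5290755 and -1.25 for 4954173, both called.

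Acly had 1 probe set that left its gene. Probe set 5575501 read 5.87, 5.10 and 5.58 in AGO2 null cells, 7.05, 7.13 and 7.22 in Dicer null cells and 6.97, 6.86 and 6.73 in wild-type cells. Its AGO2 null arrays lay about 1 log2 unit below all others, while the gene's median differed by -0.03 from wild type. The index difference was -1.31 ± 0.17 against wild type (adjusted p = 0.00468) and -1.15 ± 0.17 against Dicer null cells (adjusted p = 0.00618). In Fdft1, probe set 5124144 read 8.34, 8.34 and 8.37 in AGO2 null cells, 7.45, 7.53 and 7.64 in Dicer null cells and 8.23, 8.11 and 8.45 in wild-type cells. It was low in Dicer null cells, where the gene's median was 0.35 above wild type, with an index difference of -1.07 ± 0.13 (adjusted p = 0.00139) against wild type. AGO2 null cells were above Dicer null cells in this index by 1.01 (adjusted p = 0.00247).

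Lpin1 had probe sets on both sides of its own change. Probe set 4561897 read 7.21, 7.10 and 6.88 in AGO2 null cells, 7.93, 8.20 and 8.24 in Dicer null cells and 5.27, 5.54 and 5.77 in wild-type cells. It rose by 1.54 in AGO2 null cells (adjusted p = 0.000285) and by 2.60 in Dicer null cells (adjusted p = 5.25e-06), more than the gene's median, which was 0.43 and 1.65 higher. The index differences of 1.11 (adjusted p = 0.0311) and 0.95 (adjusted p = 0.0493) were lost without AGO2 null replicate 2 (adjusted p = 0.0639 and 0.0692) and in most fits that left out another array. Probe set 4572877 was nearly level, with 8.35, 8.21 and 8.44 in Dicer null cells and 7.97, 8.17 and 7.90 in wild-type cells, an index difference of -1.32 ± 0.16 (adjusted p = 0.00168). The index differences of 5533273 (-1.10) and 5202815 (-1.07) in Dicer null cells were not called without 7 and 4 of the single arrays. In Acaca, probe set 4576751 had an index 1.16 higher in AGO2 null than in Dicer null cells (adjusted p = 0.0066). Where these probe sets lie in their genes is not given in the files used here.

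Genes of neighbouring pathways were counted from lists of genes with a known role there. Over all named genes, 14.5% were called higher and 10.6% lower in AGO2 null cells relative to wild type. In Dicer null cells these shares were 12.2% and 20.6%. The counts of each list are to be read beside these shares, and some lie near them. Of 7 further measured genes of the mevalonate and sterol pathway, 2 rose and 1 fell in AGO2 null cells, and 1 rose and 1 fell in Dicer null cells relative to wild type. Lbr, a sterol reductase of the inner nuclear membrane, was higher by 0.35 in AGO2 null and by 0.41 in Dicer null cells. Cyb5r3, which passes electrons to lipid-modifying enzymes, was lower, at -0.35 in AGO2 null and -0.89 in Dicer null cells. Of 17 further genes of sterol sensing and SREBP control, 4 rose and 3 fell in AGO2 null cells and 7 rose and 0 fell in Dicer null cells. Erlin2, which takes part in the sterol-driven breakdown of HMG-CoA reductase, rose by 0.47 in AGO2 null and by 0.72 in Dicer null cells. Syvn1, a ubiquitin ligase of the endoplasmic reticulum, rose by 0.43 in Dicer null cells. Prkaa2, a catalytic subunit of the energy sensor AMPK, was lower in AGO2 null cells at -0.62, and Pgrmc1, a haem-binding partner of sterol enzymes, rose there by 0.50.

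Of 21 genes of cholesterol uptake, transport, storage and export, 6 rose and 6 fell in AGO2 null cells, and 1 rose and 12 fell in Dicer null cells relative to wild type. The shares were 28.6% and 28.6% in AGO2 null cells, against 14.5% and 10.6% of all named genes. In Dicer null cells they were 4.76% and 57.1%, against 12.2% and 20.6%. The medians were -0.01 in AGO2 null and -0.33 in Dicer null cells. Ch25h, which makes 25-hydroxycholesterol, read 7.99, 8.96 and 7.48 in AGO2 null cells, 5.03, 4.52 and 3.81 in Dicer null cells and 6.23, 5.68 and 5.91 in wild-type cells. Cyp7b1, which inactivates oxysterols, read 8.21, 7.88 and 8.07 in AGO2 null cells, 4.57, 4.59 and 4.39 in Dicer null cells and 6.22 on all 3 wild-type arrays. The 3 genotypes did not overlap in either gene, with AGO2 null highest and Dicer null lowest. Differences from wild type were 2.20 (Ch25h) and 1.84 (Cyp7b1) in AGO2 null cells and -1.49 and -1.70 in Dicer null cells, all called. Vldlr, a lipoprotein receptor, had the same order, with 1.29 in AGO2 null and -1.69 in Dicer null cells. Gramd1b, which carries cholesterol out of the plasma membrane, rose by 1.79 in Dicer null cells, and Lrp8, another lipoprotein receptor, was lower in AGO2 null cells at -0.82.

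Most measured genes of fatty acid oxidation, the breakdown of fatty acids in mitochondria and peroxisomes, fell in Dicer null cells. Of 21 measured genes, 0 rose and 14 fell there relative to wild type, with a median difference of -0.54, and 2 rose and 6 fell in AGO2 null cells, with a median of -0.09. The 14 were 66.7% of the list, where 20.6% of all named genes fell in Dicer null cells. In AGO2 null cells 9.52% rose and 28.6% fell, against 14.5% and 10.6% of all named genes. Cpt1a, the transferase that admits fatty acids to mitochondria, read 8.66, 8.67 and 8.66 in AGO2 null cells, 7.82, 7.87 and 7.92 in Dicer null cells and 8.94, 8.98 and 9.03 in wild-type cells. Its Dicer null difference was -1.12 ± 0.05 (adjusted p = 1.41e-06) and its AGO2 null difference -0.32 ± 0.05 (adjusted p = 0.00213). Ppargc1a, a coactivator of mitochondrial genes, was lower in Dicer null cells at -0.98 (adjusted p = 0.00352). In AGO2 null cells the thiolase Acaa2 (-0.90) and the dehydrogenase Acadm (-0.73) fell most, and Echs1, the enoyl-CoA hydratase, rose by 0.90. Between the null lines 13 of the 21 were higher in AGO2 null than in Dicer null cells and 0 lower. Of all named genes 21.7% were higher and 8.63% lower in that comparison.

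Of 27 further genes of fatty acid synthesis, elongation, desaturation and activation, 9 rose and 2 fell in AGO2 null cells and 8 rose and 2 fell in Dicer null cells relative to wild type. The shares were 33.3% and 7.41% in AGO2 null cells, against 14.5% and 10.6% of all named genes. In Dicer null cells they were 29.6% and 7.41%, against 12.2% and 20.6%. Acsl4, which activates polyunsaturated fatty acids, rose by 1.21 in AGO2 null and 0.84 in Dicer null cells, and Hacd4, a dehydratase of chain elongation, by 1.79 and 1.04. Elovl7 and Elovl4, elongases of long chains, fell in both lines, at -2.74 and -0.66 in AGO2 null cells and -1.71 and -1.08 in Dicer null cells. Of 25 genes of glycerolipid and phospholipid synthesis, 7 rose and 4 fell in AGO2 null cells and 6 rose and 4 fell in Dicer null cells. These were 28% and 16% in AGO2 null and 24% and 16% in Dicer null cells, to be read beside the same shares of all named genes. Lpcat4, a lysophospholipid acyltransferase, rose by 1.36 in AGO2 null and by 1.96 in Dicer null cells, and Pemt, which methylates phosphatidylethanolamine, by 0.77 and 0.98. Chka, the choline kinase, was lower in AGO2 null than in Dicer null cells by a difference of -1.33, the largest of that list between the lines.

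Cell type markers differed between the lines beside these genes. For their counts too, 14.5% of all named genes were higher and 10.6% lower in AGO2 null cells, and 12.2% and 20.6% in Dicer null cells. Of 15 fibroblast markers, 7 rose and 1 fell in AGO2 null cells and 1 rose and 12 fell in Dicer null cells relative to wild type. Their mean log2 value was 9.92 to 10.06 on AGO2 null, 7.90 to 7.99 on Dicer null and 9.62 to 9.68 on wild-type arrays. For 7 epithelial markers these means were 6.84 to 7.14, 7.18 to 7.23 and 5.97 to 6.09 in the same order, where 3 rose in AGO2 null and 2 in Dicer null cells. The median difference of the 7 epithelial markers from wild type was 0.33 in AGO2 null and 0.09 in Dicer null cells. In Dicer null cells 5 of them lay above wild type and 2 below. Among the 7, Krt19 was higher by 3.90 in AGO2 null and by 3.52 in Dicer null cells, and Krt18 by 0.59 and 4.30. The array means of this list thus rest largely on single markers in Dicer null cells. Of 8 adipocyte markers, 1 rose and 0 fell in AGO2 null cells and 0 rose and 2 fell in Dicer null cells, with array means of 5.85 to 5.91 in AGO2 null, 5.66 to 5.71 in Dicer null and 5.77 to 5.86 in wild-type cells. Of 6 hepatocyte markers 1 rose in AGO2 null cells and 0 were called in Dicer null cells, and of 5 steroidogenic markers 0 were called in AGO2 null cells and 1 rose in Dicer null cells. Of 10 cycling markers, 1 rose and 2 fell in AGO2 null cells and 2 rose and 1 fell in Dicer null cells, with array means between 9.78 and 9.87 on all arrays. The part of these markers in the differences of the sterol and fatty acid genes was not tested.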

How the data were processed

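RNA of AGO2 null, Dicer null and wild-type fibroblasts was hybridised to 9 mouse exon arrays, and the authors deposited log2 values for 23332 gene-level rows and 229581 exon-level probe sets per array. The genome build mm8 is named in the submitters' processing notes, whereas the background correction, summarisation and normalization behind the deposited log2 values could not be given, as the sources used here name none of them. These values were used as deposited, and all columns belong to labelled samples. Of the gene-level rows, 14996 carry 1 symbol, 1019 several and 7317 none, and of the probe sets 209279, 4446 and 15856. Members were matched by symbol, only on rows with 1 symbol.

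Groups were taken from the labels. Genotypes were compared by lmFit and eBayes of limma 3.58.1 (R 4.3.3), with a mean for each of 3 genotypes over all 9 arrays, with Benjamini-Hochberg adjustment over all rows of a level, calling an adjusted p under 0.05. SE and intervals come from that fit. The splicing index was tested alike over 106914 probe sets, taking genes of 4 or more probe sets whose gene level was at or above the median row, leaving out the lowest 25% of probe sets. The test was checked on simulated data, drawn as independent rows with the same SD in every genotype. That check does not cover a shift shared by many genes on a single array, as seen for AGO2 null replicate 2. Arrays have no read depth, so the number of arrays limits the precision. Promoter windows and names came from RefSeq (GRCm38.p6), and no coordinate was converted between builds.

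The members, lists and named-gene rules were chosen with earlier results of these data known. Values per array are given for members called with a log2 difference of at least 0.5, up to 12 per comparison by size, and for 6 regulators, other members by counts and differences. From each neighbouring list up to 2 called rises and 2 called falls per comparison could be named, by size, and up to 5 called probe sets with the largest index difference. Array values of Hmgcs1, Idi1, Npc1 and Sc5d beyond that, and the promoters of Msmo1, Srebf2 and Fasn, were chosen after values were seen. So was the reporting of single genes without AGO2 null replicate 2, which stood out in these same genes. Alternatives were scaling, an offset, a filter on dim rows, a trended fit, the 6 compared arrays alone, a replicate block, the median of a gene's probe sets and leaving out each array.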

Additional observations from a re-analysis of the deposited data

How the results depend on the processing

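Leaving out 1 array at a time gave 5 to 17 sterol and fatty acid genes higher and 0 lower in AGO2 null cells than in wild type, 11 to 23 higher and 1 lower in Dicer null cells than in wild type, and 2 to 5 higher and 6 to 12 lower in AGO2 null than in Dicer null cells. The counts of 17 and 23 came without AGO2 null replicate 2, the 5 without AGO2 null replicate 3 or wild-type replicate 1, and the 11 without Dicer null replicate 1. A fit of the 6 compared arrays called 4 higher in AGO2 null cells and 23 higher in Dicer null cells, and quantile normalization called 15 lower in AGO2 null than in Dicer null cells.

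Probe sets higher numbered 66 to 150 in AGO2 null and 105 to 240 in Dicer null cells against wild type, and lower 5 to 9 and 13 to 27, when 1 array was left out, and 63 to 91 were higher and 85 to 165 lower in AGO2 null than in Dicer null cells. Probe sets lower in AGO2 null cells than in wild type numbered 20 without dim probe sets, 22 after median centring, 24 after quantile normalization and 6 with the replicate block, and median centring called 243 lower in AGO2 null than in Dicer null cells.

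The splicing index, with 1 array left out, was higher in 1 to 17 and lower in 4 to 11 probe sets (AGO2 null against wild type), in 1 to 9 and 5 to 20 (Dicer null against wild type) and in 3 to 11 and 3 to 20 (AGO2 null against Dicer null). Against wild type in AGO2 null cells, subtracting the mean gave 16 higher, no filter on dim probe sets 5 higher and 6 lower, and the replicate block 5 higher and 6 lower. In Dicer null cells against wild type no filter gave 4 higher and 8 lower and the block 6 higher and 11 lower, and between the null lines no filter gave 5 higher and 8 lower.

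Replicate numbers did not pair the arrays: deviations of same-numbered arrays correlated at 0.01 to 0.19, -0.10 to 0.01 and -0.02 to 0.00 in the 3 comparisons, and 2 of 9 arrays correlated best with their own number. With the number as a replicate block, gene-level calls were 7 higher and 0 lower (AGO2 null against wild type), 13 and 1 (Dicer null against wild type) and 2 and 9 (AGO2 null against Dicer null). Among called values, Fdps in AGO2 null cells lost its call and turned sign, at -0.08 as the median of its probe sets on each array (adjusted p = 0.825). The differences of its single probe sets had a median of 0.03. Small differences of uncalled members also turned sign in AGO2 null cells against wild type by the median on each array. Hmgcs1, Mvk and Nsdhl came to 0.14, 0.07 and 0.08, and Pmvk and Dhcr7 to -0.01. Mbtps1, Npc1 and Fasn came to 0.02, 0.01 and 0.06, and Scap reached 0.00. The shorter core of the sterol regulatory element raised its share over all genes to 7.44%. Over the alternatives other than leaving out 1 array, the fit of 6 arrays included, tested values of single genes kept their side of the threshold in 427 cases, lost a call in 20 and gained one in 9. Over the fits that left out 1 array, they kept their side in 402 cases, lost a call in 55 and gained one in 2. Array signal over background is not given in the files, so dim members could not be judged by it. The cause of these changes was not tested.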
